A study of Homo sapiens with 22 samples.

Results

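The regions described here are places where RNA polymerase II phosphorylated on serine 5 (Pol2S5p) was found in every Pol2S5p library of the series, with no peak of the transcription factor E2F3. They were chosen from the peak lists deposited for 22Rv1, a cell line grown from a human prostate carcinoma. A member is a row of the Pol2S5p list of control cells (Ctrl) that is narrower than 10 kb, overlaps by at least 1 bp a row of each of the 3 other Pol2S5p lists, and overlaps no E2F3 row of either E2F3 list. There were 8039 members among the 35493 rows of the Ctrl list. Of the 35248 rows under 10 kb, 19863 were present in all 4 lists (56.4%) and are called constant. Members were 40.5% of the constant rows, and the other 11824 constant rows carried E2F3. Rows without E2F3 made up 60.3% of all Ctrl rows under 10 kb and 85.8% of those missing from at least 1 other Pol2S5p list. These shares are set by the rule and are given as a description.

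The 6 libraries behind the rule were Pol2S5p and E2F3 in 22Rv1 overexpressing H1-10, a linker histone variant (H1-10 OE), Pol2S5p and E2F3 in 22Rv1 Ctrl, and Pol2S5p after an siRNA against E2F3 (siE2F3) or a control siRNA (siCtrl). The deposited names of both siRNA lists carry H1-10 overexpression, which the sample labels do not state. H3K27me3 lists of H1-10 OE and Ctrl were set against the members and did not enter the rule. Each group was 1 library, so differences cannot be checked against replicates and no test between libraries was made. Neither the level of H1-10 nor that of E2F3 can be read from peak lists. Intervals are 95% Wilson intervals for shares and Newcombe intervals for differences of shares. They cover counting error only.

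As transcription starts, the C-terminal repeats of RNA polymerase II are phosphorylated on serine 5, and this form is best known from gene starts, where it gives sharp peaks, with weaker signal further along genes. E2F3 is an activating member of the E2F family, which binds gene starts and drives genes of the cell cycle and DNA replication under the control of the retinoblastoma protein. H3K27me3 is the histone mark laid down by Polycomb complexes at silenced genes. No gene annotation of hg19, the build of the files, was used here. Regions are named by their position, and no member is assigned to a gene or to an exon, intron or promoter. Positions are 1-based.

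The members were the weak end of the constant Pol2S5p rows. The fold enrichment of a row, as read from the authors' own signal value, had a median of 4.64 at members and 15.4 at constant rows with E2F3. Among the members, 56.4% (interval 55.3 to 57.5%) had a -log10 q of 5 or more, against 97.4% of the rows with E2F3 (97.1 to 97.7%). Ranked by -log10 p within their own list, 0.821% of the members (0.646 to 1.04%) lay in the strongest 10% of the Ctrl list, against 27.9% of the rows with E2F3 (27.1 to 28.7%). In H1-10 OE the shares were 4.22% and 32.5%. In siE2F3 they were 29.4% of the members and 61.9% of the rows with E2F3, and in siCtrl 30.9% and 64.2%. The lists differ in length, so the shares compare both sets within a list and not the lists with each other.

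The share of constant rows without E2F3 fell steadily as Pol2S5p became stronger. When the constant rows were cut into 10 equal classes by -log10 p, 93.4% of the weakest class (92.2 to 94.4%) had no E2F3 row. The share was 66.7% in class 4, 41.02% in class 5 and 13.9% in class 6. It was 2.01% in the strongest class (1.48 to 2.73%), which held 40 members among 1987 rows. Because strength and E2F3 went together so closely, width, neighbours and distance were also compared within 5 equal classes of strength, numbered from the weakest.

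**Figure D1:**
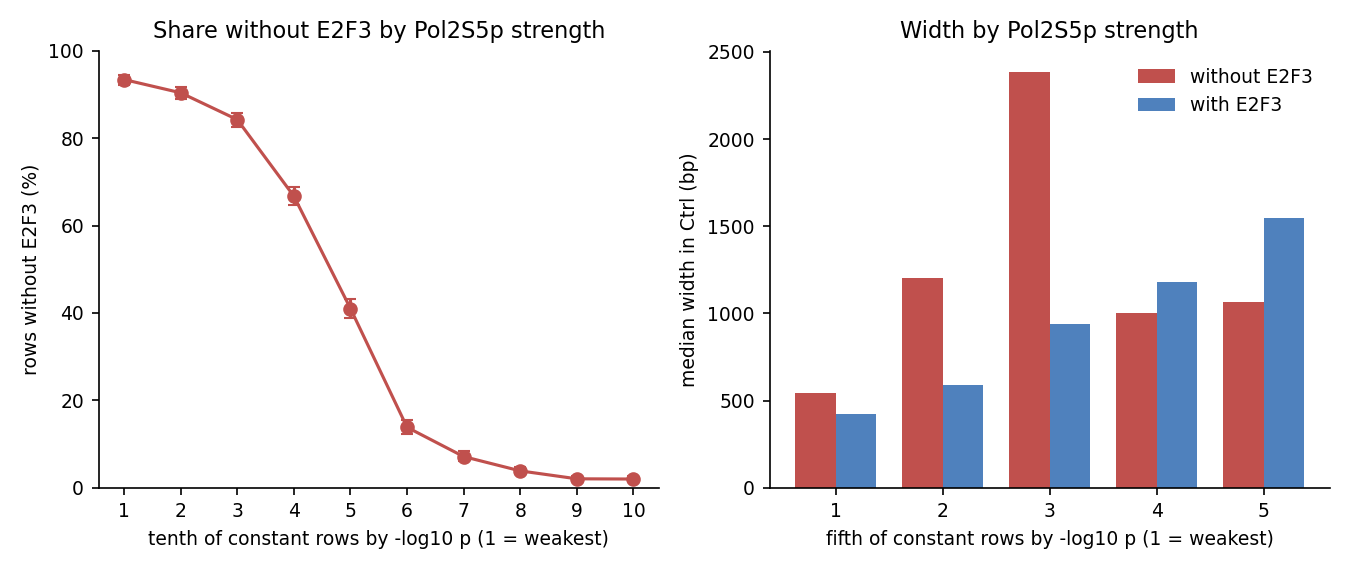
Left, percentage of constant Pol2S5p rows without E2F3 in 10 equal classes of the constant rows by -log10 p of the Ctrl list, with 95% Wilson intervals. The share is 93.4% in the weakest and 2.01% in the strongest class. Right, median width in bp in 5 equal classes of the same ranking, for rows without E2F3 (left bar of each pair) and with E2F3 (right bar). Rows without E2F3 are the wider ones in the 3 weaker classes and the narrower ones in the 2 stronger classes.

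Over all constant rows as deposited, members were narrower. Their median width was 828 bp (interval of the median 809 to 845), and that of rows with E2F3 was 1165 bp (1151 to 1178). The 2 sets differed in spread more than in their upper end. Members narrower than 500 bp numbered 1987 (24.7%), against 5.80% of the rows with E2F3, a difference of 18.9 percentage points (17.9 to 20.0). Only 22.9% of the members measured 1000 to under 2000 bp, the range that held 44.02% of the rows with E2F3. At 2000 bp or more the shares were 18.5% and 17.9%, a difference of 0.635 points (-0.454 to 1.74).

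**Figure D2:**
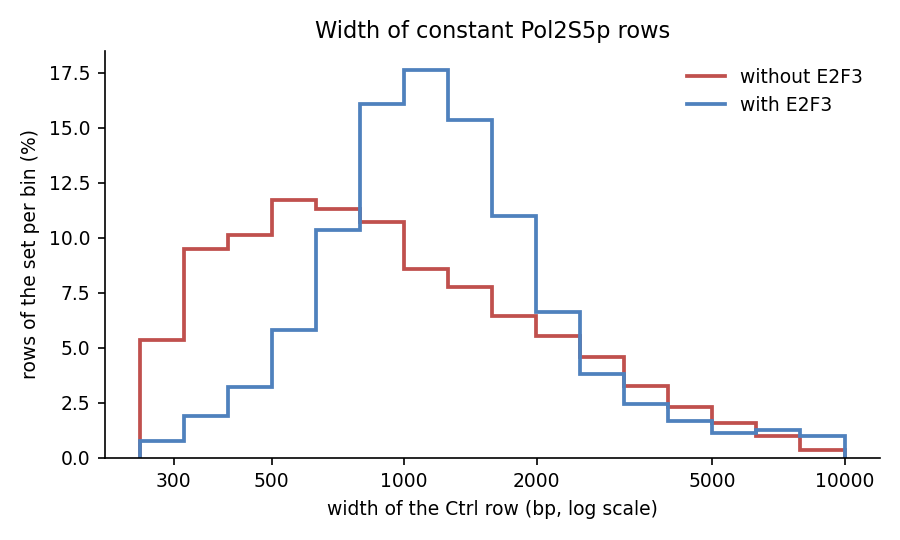
Width in bp (log scale) of constant Pol2S5p rows in the Ctrl list, as the percentage of each set per bin of 0.1 log10 units, for rows without E2F3 and with E2F3. Rows with E2F3 gather around 1 kb, with 44.02% between 1000 and 2000 bp, and rows without E2F3 spread over narrow and wide rows.

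The share without E2F3 therefore did not run one way with width. It was 74.3% of constant rows under 500 bp (72.7 to 76.0%), dropped to 25.1% at 1000 to under 1500 bp (23.9 to 26.4%), and stood at 47.6% at 3000 to under 5000 bp (44.6 to 50.6%). Within strength classes 1, 2 and 3 the order of the widths turned, and in classes 4 and 5 members stayed narrower. In strength class 2 the median width was 1201 bp at 2998 members and 592 bp at 974 rows with E2F3. In class 3 it was 2387 bp at 1090 members and 937 bp at 2883 rows with E2F3. In class 4 it was 1003 bp at 219 members and 1179 bp at 3753 rows with E2F3. In class 5, 81 members measured 1068 bp, and 3892 rows with E2F3 measured 1548.5 bp.

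The pooled order of the widths also turned under 2 other settings. When -log10 q of at least 5 was required in the 4 Pol2S5p lists, 3365 members remained, with a median width of 1436 bp against 1192 bp for rows with E2F3. When Ctrl rows within 1 kb of each other were joined, a setting added after the data were seen, the medians were 1453 bp without E2F3 and 1217 bp with it. A further Ctrl row lay within 1 kb of 68.0% of the members and of 20.1% of the rows with E2F3. The members just inside the width limit, 9 rows of 9 kb to under 10 kb, had a median fold of 7.28, and the 11 constant rows without E2F3 of 10 kb to under 11 kb had a median fold of 8.31.

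Most members were not single peaks but lay next to further Pol2S5p rows of the same list. The gap to the nearest other Ctrl row had a median of 463 bp at members and 11027 bp at rows with E2F3. Another Ctrl row lay within 5 kb of 84.9% of the members (84.1 to 85.6%) and of 36.4% of the rows with E2F3 (35.5 to 37.2%), a difference of 48.5 points (47.3 to 49.7). Among all Ctrl rows under 10 kb the share was 63.9%. It was 79.95% among Ctrl rows without E2F3 that were missing from another Pol2S5p list, so close neighbours were also common at rows without E2F3 that were not constant. Within strength class 2 the median gaps were 360 bp at members and 12658.5 bp at rows with E2F3, and within class 3 they were 511.5 bp at members and 16737 bp at rows with E2F3. In class 5 the order turned, with 9941 bp at members and 7154.5 bp at rows with E2F3.

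In the siRNA libraries, the places of many members belonged to wider Pol2S5p rows. By strength class, the siCtrl row at members had medians of 4395, 4422 and 3567 bp in classes 1, 2 and 3. The members themselves had median widths of 543, 1201 and 2387 bp there. Row widths in siE2F3 were not compared by class. The strongest row overlapping a member had a median width of 837 bp in H1-10 OE, against 828 bp for the member itself in Ctrl. In siE2F3 it was 3122 bp and in siCtrl 4087 bp. At rows with E2F3 the medians were 1331 bp in H1-10 OE and 1165 bp in Ctrl, and 1688.5 bp in siE2F3 and 1860 bp in siCtrl. The order of the siCtrl widths turned in the 2 stronger classes, with 1509 bp at members and 1762 bp at rows with E2F3 in class 4, and 1627 and 2347 bp in class 5. A siCtrl row of 5 kb or more lay at 44.1% of the members (43.0 to 45.2%) and at 12.6% of the rows with E2F3 (interval from 12 to 13.2%). The siRNA lists covered 90.7 Mb (siE2F3) and 103 Mb (siCtrl), against 39.1 Mb in H1-10 OE and 43.1 Mb in Ctrl. They held 83067 rows (siE2F3) and 83650 rows (siCtrl), against 40626 in H1-10 OE and 35493 in Ctrl. The contrast between members and rows with E2F3 is within 1 list each time.

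Several members often fell into 1 such row. The 8039 members met 5631 different siCtrl rows as their strongest overlap, and 1395 of those rows held 2 or more members. The siCtrl row with the most members lay on chromosome 20 at 34303049 to 34332207, spanned 29.2 kb and held 13. A siCtrl row held a single constant Ctrl row at 46.5% of the members (45.4 to 47.5%) and at 86.2% of the rows with E2F3 (85.6 to 86.8%).

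The wider rows of the other lists did reach E2F3 in part. A siE2F3 row that overlapped a member also overlapped an E2F3 row at 19.2% of the members (18.4 to 20.1%), and a siCtrl row did so at 22.8% (21.9 to 23.8%). In H1-10 OE it was 5.01% (4.56 to 5.51%). At 6008 members (74.7%, 73.8 to 75.7%) no overlapping Pol2S5p row of any of these 3 lists held E2F3. So the label "without E2F3" applied to the Ctrl row itself and, for about this share, also to the wider rows at its place.

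At members the strongest signal of the other lists lay farther from the Ctrl summit. The summit of the strongest overlapping row lay within 200 bp of the Ctrl summit at 41.4% of the members in H1-10 OE (40.3 to 42.5%), and at 81.03% of the rows with E2F3 (80.3 to 81.7%). In siE2F3 the shares were 29.9% and 78.2%, and in siCtrl 28.3% and 77.9%. The median distance between summits in siCtrl was 769 bp at members and 72 bp at rows with E2F3. A wide row has 1 summit and can hold several members, so the distance need not be a move of the signal. Among rows with no other Ctrl row within 5 kb it was 114 bp at members and 66 bp at rows with E2F3. Summits were not compared within strength classes. In rows with E2F3 of Ctrl the E2F3 summit itself lay a median of 117 bp from the Pol2S5p summit.

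**Figure D3:**
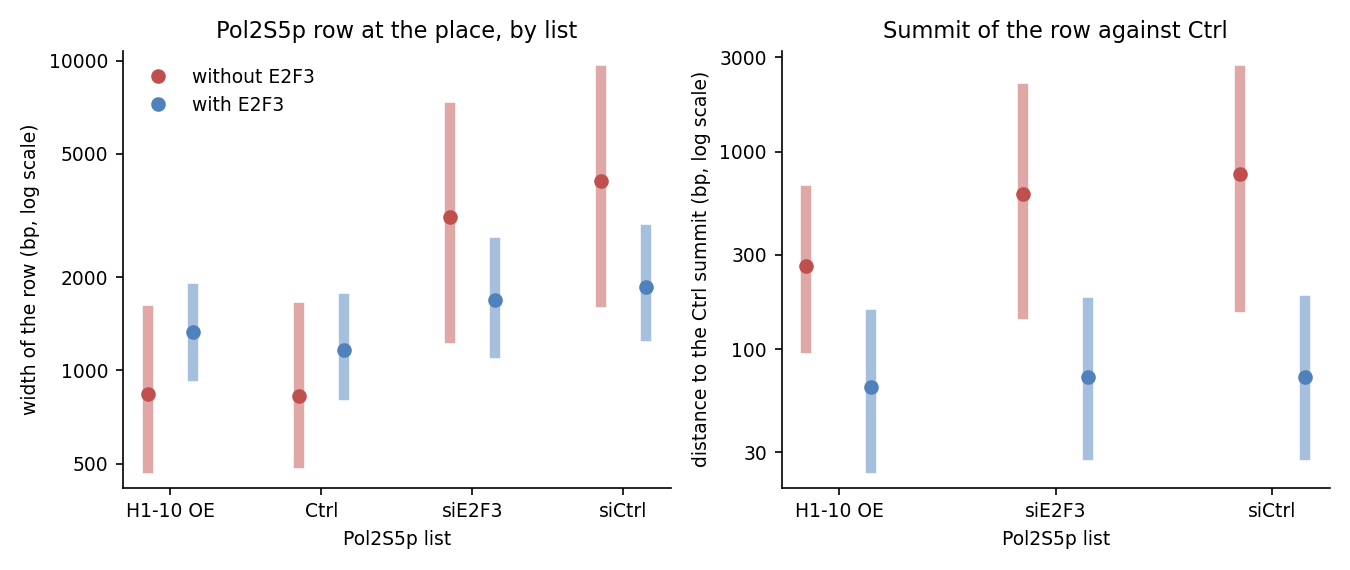
Left, width in bp (log scale) of the Pol2S5p row at each place in the lists of H1-10 OE, Ctrl, siE2F3 and siCtrl. Right, distance in bp (log scale) between the summit of that row and the Ctrl summit. Points are medians and bars run between the quartiles, for rows without E2F3 (left of each pair) and with E2F3 (right). At rows without E2F3 the siCtrl row has a median width of 4087 bp and its summit lies a median of 769 bp away, against 1860 and 72 bp at rows with E2F3.

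Presence in all 4 lists did not mean equal extent. H1-10 OE rows covered 63.7% of the 10.6 Mb of member length and 83.1% of the 18.2 Mb of rows with E2F3. Coverage of member length was 86.0% by siE2F3 and 90.2% by siCtrl, and of rows with E2F3 90.2% by siE2F3 and 93.2% by siCtrl. The strongest row was narrower in siE2F3 than in siCtrl at 67.5% of the members (66.5 to 68.5%) and at 65.9% of the rows with E2F3 (65.0 to 66.8%), a difference of 1.62 points (0.285 to 2.95). With 50% reciprocal overlap in place of 1 bp, 909 members and 6506 rows with E2F3 were left.

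By the rule no E2F3 row met a member, but E2F3 was often not far away. The nearest E2F3 row of either list lay a median of 9142 bp from a member (8908 to 9436), with quartiles of 3856 and 20332.5 bp. At rows with E2F3, the nearest further E2F3 row that they did not overlap lay a median of 22035.5 bp away (21235 to 22818). Within strength class 1 the medians were 9148 bp at members and 15867.5 bp at rows with E2F3, and within class 4 they were 14667 and 25072 bp. In class 5 they were close, with 20996 bp at members and 21151.5 bp at rows with E2F3. With the E2F3 list of H1-10 OE alone the order turned, with 438346 bp at constant rows without E2F3 and 324364.5 bp at those with it. An E2F3 row within 5 kb was found at 31.2% of the members (30.2 to 32.2%), and a further one at 18.7% of the rows with E2F3 (17.98 to 19.4%). This order turned when rows were split by another Ctrl row within 5 kb, a split set after the values were seen. With such a neighbour the shares were 36.1% of the members (34.95 to 37.2%) and 42.25% of the rows with E2F3 (40.8 to 43.7%). Without one they were 3.87% (2.92 to 5.10%) and 5.21% (4.73 to 5.73%). Within 1 kb the shares over all members and all rows with E2F3 were 5.77% and 5.88%, a difference of -0.106 points (-0.763 to 0.565). Beyond 50 kb the nearest E2F3 row was found for 7.09% of the members and 26.8% of the rows with E2F3.

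Nearly all of this proximity came from the Ctrl list of E2F3, which is the longer one with 22988 rows. The H1-10 OE list of E2F3, with 4296 rows, had a row within 5 kb of 136 members (1.69%, 1.43 to 1.998%), and the Ctrl list of 2479 members (30.8%, 29.8 to 31.9%). The median distance was 424729 bp to the H1-10 OE list and 9222 bp to the Ctrl list. The rows with E2F3 owed that status to the same list: 444 of them met an E2F3 row of H1-10 OE and 11806 one of Ctrl. Of the 444, 18 met no E2F3 row of Ctrl.

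The E2F3 row nearest to a member usually lay in another constant Pol2S5p row. This held for 6858 of the 8039 members (85.3%, 84.5 to 86.1%), and for 89.1% of those within 5 kb of E2F3. Of all 26674 E2F3 regions of both lists joined, 50.4% lay in a constant Pol2S5p row. That share counts each E2F3 region once, also regions far from any member. The shares before it count members, so an E2F3 row nearest to several members enters several times. They are therefore not on the same base.

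**Figure D4:**
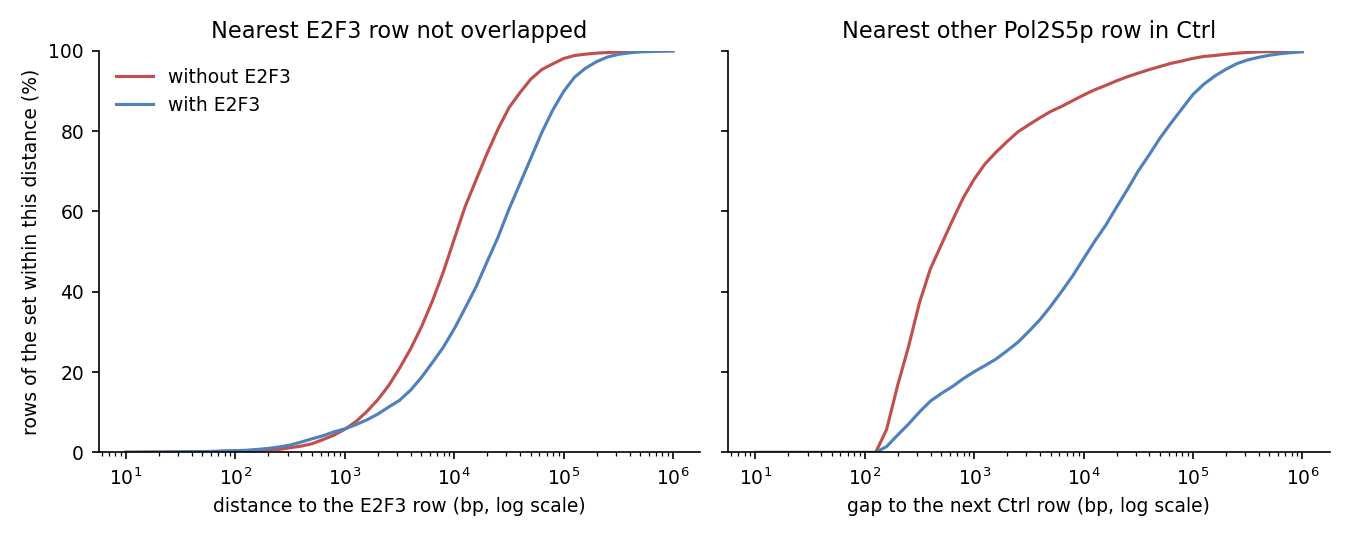
Percentage of rows within a given distance in bp (log scale) of the nearest E2F3 row that they do not overlap (left) and of the nearest other Pol2S5p row of the Ctrl list (right), for constant rows without E2F3 and with E2F3. At 5 kb the curves stand at 31.2% and 18.7% on the left, and at 84.9% and 36.4% on the right.

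Few members had E2F3 at their edge. E2F3 lay 100 bp away or less at 32 members (0.398%), with a median fold of 4.51. A further E2F3 row lay as near at 52 rows with E2F3 (0.440%). Among Ctrl rows under 10 kb without E2F3 that were missing from another Pol2S5p list, it was 28 (0.212%). Constant rows that overlapped E2F3 by 100 bp or less numbered 25, with a median fold of 5.23. The closest member was chromosome 16 at 2229254 to 2229798, 1 bp from an E2F3 row. Its fold was 5.94 in H1-10 OE and 5.25 in Ctrl, and its place lay in a siE2F3 row of 11025 bp and a siCtrl row of 20611 bp. The next, on chromosome 12 at 54663123 to 54664766, lay 3 bp from E2F3 and behaved otherwise, with a siE2F3 row of 641 bp and a siCtrl row of 265 bp. The third and the fourth lay 5 bp from E2F3, on chromosome 10 at 134778495 to 134778842 and on chromosome 5 at 49963648 to 49964228, and had no other Ctrl row within 180.1 and 225.8 kb.

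Members that stood alone had narrower rows and closer summits in the other lists than members with a neighbour. The split at 5 kb to the next Ctrl row was set after the values were seen. The 1216 members with no other Ctrl row within 5 kb had a median width of 735.5 bp and a median fold of 5.62. The 6823 with a neighbour had medians of 858 bp and 4.54. In siCtrl the strongest row at the place was 1422.5 bp wide for members alone and 5054 bp for those with a neighbour, and its summit lay 114 and 1054 bp from the Ctrl summit. Rows with E2F3 standing alone had a siCtrl width of 1633 bp and a summit distance of 66 bp. E2F3 was also farther from members alone, with a median of 21753 bp, against 7909 bp for members with a neighbour. This was not particular to members. At rows with E2F3 the nearest further E2F3 row lay 34147 bp away when alone and 7144 bp away with a neighbour.

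Some members followed one another along the chromosome. Read in order, the constant rows held 3976 runs of members with no constant row with E2F3 between them. A run of 1 member occurred 2145 times (53.95% of the runs), and 301 runs of 5 or more held 1969 members (24.5%). Members were 40.5% of the constant rows, so runs arise in any order. Whether they were longer than in a random order was not tested. The longest runs reported here were picked as extremes and lay in blocks of weak Pol2S5p rows. The run of 21 members on chromosome X at 39904028 to 39945104 spanned 41.1 kb and had a median fold of 4.54. Pol2S5p rows covered 15.0 kb of it in H1-10 OE and 30.1 kb in Ctrl, and 36.1 kb in siE2F3 and 37.0 kb in siCtrl. Its widest row measured 1.72 kb in H1-10 OE and 3.22 kb in Ctrl, and 10.6 kb in siE2F3 and 9.34 kb in siCtrl.

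A run of 20 members on chromosome 14 at 21679130 to 21734137 was the most filled of the 12 longest runs, with members over 79.5% of its 55.0 kb. Its covered length was 35.0 kb in H1-10 OE and 45.5 kb in Ctrl, and 42.3 kb in siE2F3 and 41.5 kb in siCtrl. The run of 16 members on chromosome 16 at 70565783 to 70699383 was looser, spanning 133.6 kb with members over 13.4%. There covered length was 20.9 kb in H1-10 OE and 20.8 kb in Ctrl, and 52.0 kb in siE2F3 and 52.5 kb in siCtrl. None of the 12 longest runs held an H3K27me3 row of either list. Of these runs 11 held no E2F3 row, which the way runs are defined largely fixes.

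A small number of members fell into the strongest class of constant rows. The 81 members in strength class 5 had a median fold of 26.3, and the 3892 rows with E2F3 in that class one of 24.7. The class was cut by -log10 p of the same list, so similar folds largely follow from the cut. These members had a median width of 1068 bp, a siCtrl row of 1627 bp and a median distance of 20996 bp to E2F3, where members of class 1 had 9148 bp. No other Ctrl row lay within 5 kb of 66.7% of them, against 11.1% of the members of class 1. At rows with E2F3 these shares were 56.9% in class 5 and 50.3% in class 1, so standing alone was not particular to strong members.

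The strongest member, by -log10 q in Ctrl, lay on chromosome 17 at 41444555 to 41447121 and measured 2567 bp. Its fold was 64.2 in H1-10 OE and 63.8 in Ctrl, and 53.5 in siE2F3 and 40.0 in siCtrl, and its rank was at or above the 99.7th percentile of all 4 lists. The nearest E2F3 rows lay 50.7 kb before and 29.0 kb after it. For scale, the strongest constant row with E2F3, on chromosome 15 at 65595974 to 65597904, showed fold values of 58.2 in H1-10 OE and 73.9 in Ctrl, and 37.1 in siE2F3 and 27.4 in siCtrl. The next 3, all on chromosome 1 at 11967839 to 11970363, 147735151 to 147736684 and 17221235 to 17223979, had Ctrl folds of 60.4, 68.3 and 62.3. The -log10 q in Ctrl was 378.4 at the strongest member and 449.4 to 466.6 at these 4 rows with E2F3.

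The second strongest member lay on chromosome 2 at 74691955 to 74693068. Its fold was 23.6 in H1-10 OE and 50.4 in Ctrl, and 7.26 in siE2F3 and 22.6 in siCtrl. Its row was 1886 bp wide in siE2F3 and 8872 bp in siCtrl, and E2F3 lay 6.04 kb away. The third lay on chromosome 17 at 40984423 to 40986178. Its fold was 19.4 in H1-10 OE and 40.2 in Ctrl, and 18.4 in siE2F3 and 18.8 in siCtrl. The members on chromosome 19 at 30096701 to 30097659 and at 5308326 to 5309643, the fourth and the fifth, lay 58.3 and 9.50 kb from E2F3. Their folds were 10.3 and 31.6 in siE2F3 and 39.3 and 61.6 in siCtrl. The sixth lay on chromosome 7 at 54826496 to 54828042, where the fold was 23.1 in siE2F3 and 26.98 in siCtrl. The strongest member and these 5 were each met by 1 row in every other Pol2S5p list. Folds of different lists are not on a common scale, so the values describe each list and no change is read from them.

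When members were ranked by their poorest place over the 4 lists, the leading member was again that of chromosome 17 at 41444555. The next lay on chromosome 2 at 121832278 to 121833290. Its fold was 45.2 in H1-10 OE and 29.15 in Ctrl, and 64.3 in siE2F3 and 62.4 in siCtrl. This sharp row of 1013 bp stood 184.8 kb from E2F3 and 209.3 kb from the next Ctrl row. The third, on chromosome 1 at 76250937 to 76252791, was of the other kind: its place lay in rows of 10099 bp in H1-10 OE, 14588 bp in siE2F3 and 14747 bp in siCtrl, with E2F3 4.14 kb away. The fourth, on chromosome 5 at 167913152 to 167914113, measured 962 bp in Ctrl and 1692 bp in siCtrl and lay 42.0 kb from E2F3.

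The 4 members farthest from E2F3 were not alike in strength. The extreme case with E2F3 on both sides, on chromosome X at 92928176 to 92928736, lay 1188.9 kb from the nearest E2F3 row and 1451.5 kb from the next Ctrl row. Its fold was 6.82 in H1-10 OE and 3.71 in Ctrl, and 9.27 in siE2F3 and 11.9 in siCtrl. The second, on chromosome 10 at 20104756 to 20105810, was stronger, with a fold of 18.1 in H1-10 OE and 10.9 in Ctrl, and lay 675.3 kb from E2F3. The next members, on chromosome X at 136651173 to 136651467 and on chromosome 3 at 192127216 to 192127714, had folds of 4.96 and 4.79 in Ctrl.

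The 4 widest members each met 3 or 4 rows in H1-10 OE and 1 row in siCtrl. The widest, on chromosome 17 at 80010662 to 80020548, measured 9887 bp. It met 3 rows in H1-10 OE, of which the strongest was 6129 bp wide, and 1 row each in siE2F3 (16722 bp) and siCtrl (17180 bp). E2F3 lay 0.487 kb from it. The second, on chromosome 15 at 74915030 to 74924697, met 4 rows in H1-10 OE, the strongest of 2209 bp, and 1 row of 11233 bp in siE2F3 and of 11014 bp in siCtrl. The third and the fourth, on chromosome 1 at 46081529 to 46091182 and on chromosome 20 at 44573156 to 44582773, each met 3 rows in H1-10 OE and 1 in siCtrl. In siE2F3 they met 2 and 1. Over all members, more than 1 H1-10 OE row was met by 19.0% (18.1 to 19.8%), against 8.50% of the rows with E2F3 (8.01 to 9.02%).

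The share without E2F3 differed between chromosomes. Chromosome 22 had the highest, with 353 members among 656 constant rows (53.8%, 50.0 to 57.6%), followed by chromosome 16 (48.3%, 45.2 to 51.4%) and chromosome 21 (47.0%, 40.5 to 53.6%). Chromosome 19 held the most members, 838 of 1800 constant rows (46.6%, 44.3 to 48.9%), which were 10.4% of all members and 8.14% of all rows with E2F3. The lowest shares were those of chromosome 18, with 53 of 230 (23.04%, 18.1 to 28.9%), and chromosome 13, with 71 of 280 (25.4%, 20.6 to 30.8%). Of the 23 chromosomes with constant rows, 13 lay between 36 and 44%. No member lay on chromosome Y.

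Part of this spread went with strength. The 2 weakest of the 5 strength classes made up 50.9% of the rows of chromosome 22, 31.7% of those of chromosome 18 and 28.9% of those of chromosome 13. Within these 2 classes the share without E2F3 was 89.5% on chromosome 22 (85.8 to 92.4%), 61.6% on chromosome 18 (50.2 to 72.0%) and 72.8% on chromosome 13 (62.3 to 81.3%). Within the 3 stronger classes it was 16.8% on chromosome 22 (13.1 to 21.2%), 5.10% on chromosome 18 (2.60 to 9.73%) and 6.03% on chromosome 13 (3.48 to 10.2%). Chromosome 22 thus lay above the other 2 in weak and in strong rows, while the intervals of chromosomes 18 and 13 overlapped in both. The 3 were picked as extremes of the same share in the same rows, so this is no separate check. Each group of classes still spans a range of strength. Chromosome X had the highest share in the stronger classes, 19.95% (16.2 to 24.3%), and one of 81.01% in the weaker ones. Members of chromosome 19 lay closest to E2F3, with a median distance of 6833 bp, and those of chromosome 4 farthest, with 15613.5 bp.

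**Figure D5:**
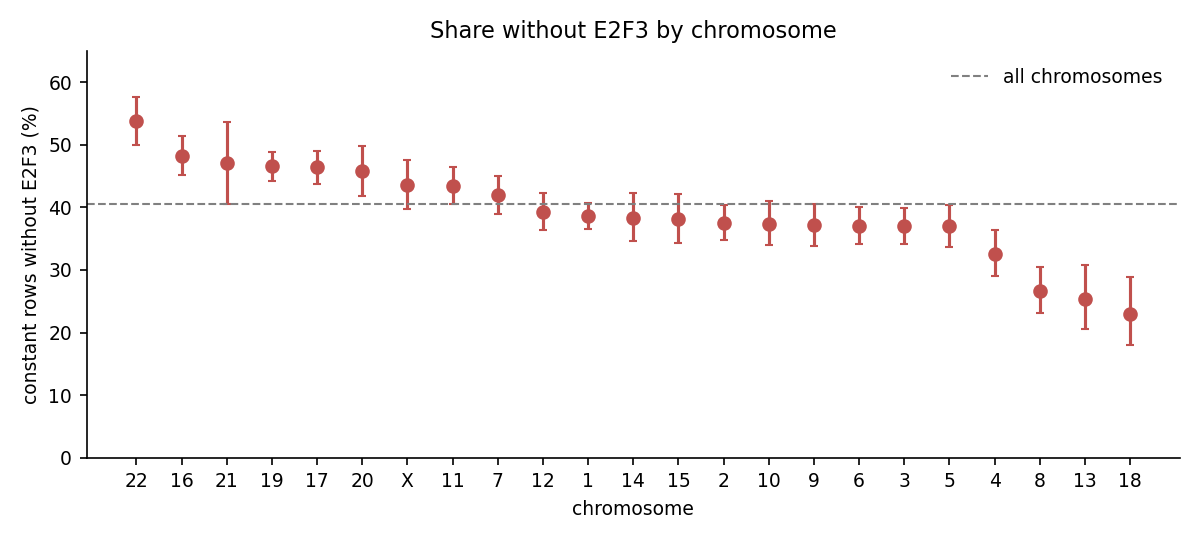
Percentage of constant Pol2S5p rows without E2F3 on each chromosome, in falling order, with 95% Wilson intervals. The dashed line marks the share over all constant rows, 40.5%. Chromosome 22 stands highest at 53.8%, and chromosomes 18 and 13 lowest at 23.04% and 25.4%.

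H3K27me3, which the rule did not use, was rare near members. The H1-10 OE list of H3K27me3 had a row within 5 kb of 58 members (0.722%, 0.559 to 0.932%) and of 167 rows with E2F3 (1.41%, 1.22 to 1.64%). The difference was -0.691 points (-0.972 to -0.403). The share of all Ctrl Pol2S5p rows under 10 kb was 1.89%. That share also counts rows with E2F3 that were missing from another Pol2S5p list, which were not summarised on their own. Among rows without E2F3 missing from another list it was 1.61%. The 1.89% is thus above the share of every set described here. The Ctrl list of H3K27me3 had a row within 5 kb of 33 members (0.410%, 0.292 to 0.576%) and of 62 rows with E2F3 (0.524%, 0.409 to 0.672%). That difference, -0.114 points (-0.303 to 0.0877), was within its counting error, and the share of all Ctrl rows was 0.417%. The lower share in the H1-10 OE list was not found among rows with no other Ctrl row within 5 kb, where it was 1.15% of the members (0.687 to 1.92%) and 0.771% of the rows with E2F3 (0.597 to 0.995%). Among rows with a neighbour it was 0.645% of the members (0.481 to 0.865%) and 2.54% of the rows with E2F3 (2.11 to 3.05%). With 50% reciprocal overlap between Pol2S5p rows the shares were 0.990% (0.522 to 1.87%) and 1.03%. Direct overlap with H3K27me3 was found at 9 members in the H1-10 OE list (0.112%) and at 4 in the Ctrl list (0.0498%). At rows with E2F3 the counts were 55 (0.465%) and 5 (0.0423%). At Ctrl rows under 10 kb without E2F3 that were missing from another Pol2S5p list they were 74 (0.560%) and 1 (0.00757%).

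The strongest member with H3K27me3 nearby lay on chromosome 17 at 39890569 to 39891459, with an H3K27me3 row of H1-10 OE 0.012 kb away. Its Pol2S5p fold was 19.2 in H1-10 OE and 33.5 in Ctrl, and 25.9 in siE2F3 and 61.2 in siCtrl. The next, on chromosome 21 at 9880629 to 9882690, showed fold values of 6.82 in H1-10 OE and 21.1 in Ctrl, and 5.88 in siE2F3 and 3.08 in siCtrl. The third, on chromosome X at 80065036 to 80066186, lay 2.83 kb from an H3K27me3 row of H1-10 OE. The fourth, on chromosome 19 at 1003531 to 1010748, overlapped an H3K27me3 row of Ctrl and lay 2.10 kb from one of H1-10 OE.

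The constant rows without E2F3 were also set against the Ctrl rows under 10 kb without E2F3 that were missing from at least 1 other Pol2S5p list. Members were wider and stronger than these 13207 rows, with medians of 828 bp and a fold of 4.64, against 483 bp and 3.99. The rule itself favours wide rows, since a wide row meets rows of other lists more easily. No classes of width or strength were used here, so these values are a description only. Members were closer to E2F3, with a median of 9142 bp against 13820 bp. H3K27me3 of H1-10 OE lay within 5 kb of 0.722% of the members and of 1.61% of the rows missing from a list, and H3K27me3 of Ctrl of 0.410% and 0.242%.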

How the data were processed

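Peak lists of 8 of the 22 samples were used, 1 library per group; the other 14 samples, 10 inputs and 4 H1-10 libraries, were not analysed here. Groups came from the sample titles. The submitters' processing notes name hg19, Bowtie, fastp and FastQC; the sources used here do not give their versions, the peak caller, its threshold or its inputs. For every row the authors deposited a score, a signal value, the -log10 p and the -log10 q. The signal value was read here as the fold enrichment (a ratio) at the summit, a reading that depends on the peak caller. The score was not used. Read depth is unknown here. Peak names carry 1 folder label in the H3K27me3, H1-10 OE and Ctrl Pol2S5p lists and another in the E2F3 and siRNA lists, so the rule joins lists that may have been processed differently.

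Rows overlapped where they shared at least 1 bp. Both E2F3 lists were joined for distances, which count the base pairs between rows. The row of another list at a member was the overlapping row with the highest -log10 p. Intervals of medians are binomial order-statistic intervals. No test across libraries was possible with 1 library per group. Members and settings were chosen with earlier results of these data known. Regions were named by rule: the 6 strongest members, the 4 farthest from E2F3, widest, nearest to E2F3, best placed over all lists and strongest near H3K27me3, and the 4 strongest constant rows with E2F3. Chromosome 8 was not named from. Places of high background were not masked. Runs were picked after their values were seen. Planned gene starts and gene lists were not tested, since the gene table given was on another build. Overlap and distance code was tested on simulated lists: all 5000 planted overlaps among 35493 rows were found, with 0 false ones, and all distances equalled those of bedtools 2.31.1. Computations used matplotlib 3.10.9, scipy 1.17.1, pandas 2.3.3 and numpy 2.4.6 in Python 3.11.15.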

Additional observations from a re-analysis of the deposited data

How the results depend on the processing

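Planned settings were tried for the number of members, their median width, distance to E2F3 and fold, the share without E2F3 on chromosome 22, and the share with H3K27me3 of H1-10 OE within 5 kb; joining Ctrl rows within 1 kb was added after the data were seen. Values follow in that order, leaving out those that moved little. With 50% reciprocal overlap they were 909, 972 bp, 17124 bp, 7.67, 15.7% and 0.990%. With the E2F3 list of H1-10 OE alone they were 19419, 1049 bp, 438346 bp, 8.98, 98.9% and 1.16%. With -log10 q of at least 5 in the Pol2S5p lists, the number was 3365, the width 1436 bp, the fold 6.21 and the share on chromosome 22 31.9%. With Ctrl rows joined they were 4516, 1453 bp, 11766.5 bp, 5.02 and 40.3%. With -log10 q of at least 5 in the E2F3 lists, the distance was 10253 bp and the fold 4.75. With no E2F3 within 1 kb the distance was 9943 bp. Under 5 kb the width was 803 bp and the fold 4.59. An H3K27me3 distance of 1 kb gave 0.236%.

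The direction against rows with E2F3 (or chromosome 22 against 18) was the same in 47 of 51 values. Only the sign was counted, so small differences are included. One was H3K27me3 with 50% reciprocal overlap, 0.990% (0.522 to 1.87%) against 1.03%. Several settings kept nearly the same rows, so the values are not separate checks. The 4 exceptions were the width with -log10 q of at least 5 in the Pol2S5p lists (1436 against 1192 bp) and with rows joined (1453 against 1217 bp), and, with E2F3 of H1-10 OE alone, the distance (438346 against 324364.5 bp) and H3K27me3 (1.16% against 0). The cause was not tested. Settings for gene starts were not run. No paired analysis was possible because each group had 1 library. The unknown depth limits every count, since weak rows depend on the threshold of their list.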
